A study of Mus musculus with 10 samples.

Results

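The genes described here are the 4 adult globins of the mouse (Hbb-bs, Hbb-bt, Hba-a1 and Hba-a2) and 5 other genes of red cell development (Alas2, Slc4a1, Klf1, Gata1 and Tfrc), 9 of the 49585 genes in the deposited tables. They were listed by symbol, and chosen by the CPM of the globins in the pair of libraries with a TKO tag, where globin RNA had been seen, so the levels in that pair are given as a description, with no test. All 9 were found in the tables, and 2 of them, Klf1 and Tfrc, passed the count filter of the test between the organoid groups. Bulk RNA was sequenced from a mouse model of hepatocellular carcinoma that lacks the Rb family of cell cycle inhibitors, in 10 samples labelled as 5 groups of 2. Livers or lesions were digested with enzymes, and cells were sorted for YFP, a fluorescent reporter that Cre recombination switches on. The 6 libraries used are a pair of count columns named for Sox9 with a TKO tag (called the TKO-tagged pair here), a pair named for Sox9 without the tag (Sox9-derived organoids) and a pair named for Ck19 (Ck19-derived organoids). TKO stands for triple knockout in the title of the series. All 6 are labelled as primary liver cells with no treatment, and the labels used here give no strain, age, sex or Cre driver and no genotype for any single library. Nothing in the labels says whether the libraries of a pair came from separate animals or cultures.

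Hemoglobin, the oxygen carrier of red cells, is built from alpha chains (Hba-a1, Hba-a2), beta chains (Hbb-bs, Hbb-bt) and heme. During red cell development the transcription factors GATA1 and KLF1 switch on the globin genes, ALAS2 starts heme synthesis, and the transferrin receptor (Tfrc) brings in iron. Precursors lose their nucleus and then, as reticulocytes, the rest of their RNA, of which globin RNA is the most abundant and persistent kind. Red cells and reticulocytes circulate through every liver, and the fetal liver is itself a site of red cell formation.

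The TKO-tagged columns carry a name that fits the Sox9-derived organoids of the labels, but their marker genes go against that label. Alb, the main plasma protein of hepatocytes, stood at 21740 and 13158 CPM (fragments per 1000000 assigned fragments) in the TKO-tagged libraries, against 1.24 to 20.4 CPM in the 4 organoid libraries. Epcam, an adhesion protein of duct epithelium, stood at 8.99 and 5.61 CPM in the TKO-tagged libraries, against 2101 to 3833 CPM in the organoids. The pair is therefore named by its tag below, and what cells it came from is not stated in the labels. The TKO-tagged libraries held 53280136 and 59664959 assigned fragments, the Sox9-derived organoids 36606008 and 33154972, and the Ck19-derived organoids 31883180 and 32747944. Mitochondrial genes took 2.78% and 1.6% of fragments in the TKO-tagged libraries, against 0.664% to 0.794% in the organoids, and the part of this in the results was not tested. At these depths 3 fragments, the limit that a count of 0 allows, correspond to 0.0503 to 0.0941 CPM, and such limits and all intervals below cover counting error only.

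Because the globins were the genes that stood out together, the DNA in front of them is shown with that of Alas2, 250 bases up to the start site from RefSeq on GRCm38.p6, read 5′ to 3′ on the strand of the gene. The windows are chr7:103827929-103828178 (minus strand) for Hbb-bs, chr7:103813924-103814173 (minus strand) for Hbb-bt, chr11:32283422-32283671 (plus strand) for Hba-a1 and chrX:150547167-150547416 (plus strand) for Alas2. Capitals mark matches on either strand to GATAAG (the GATA motif), CACCC (the box bound by factors of the KLF family), CCAAT (the box that factor NF-Y binds) and ATATAA, which is known as the TATA box.
Hbb-bs: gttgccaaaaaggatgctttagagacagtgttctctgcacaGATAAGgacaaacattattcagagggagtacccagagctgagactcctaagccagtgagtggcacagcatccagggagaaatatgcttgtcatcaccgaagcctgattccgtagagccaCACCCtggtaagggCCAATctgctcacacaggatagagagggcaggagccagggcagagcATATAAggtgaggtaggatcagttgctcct
Hbb-bt: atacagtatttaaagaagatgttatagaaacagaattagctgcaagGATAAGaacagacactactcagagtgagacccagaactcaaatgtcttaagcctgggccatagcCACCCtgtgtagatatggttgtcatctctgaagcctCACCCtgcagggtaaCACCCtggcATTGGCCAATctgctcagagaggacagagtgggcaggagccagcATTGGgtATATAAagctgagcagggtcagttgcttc
Hba-a1: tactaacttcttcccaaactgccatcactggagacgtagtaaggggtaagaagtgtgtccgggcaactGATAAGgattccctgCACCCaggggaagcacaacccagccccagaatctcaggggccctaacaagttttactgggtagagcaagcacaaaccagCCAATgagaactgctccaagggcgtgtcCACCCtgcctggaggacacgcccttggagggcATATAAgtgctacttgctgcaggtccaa
Alas2: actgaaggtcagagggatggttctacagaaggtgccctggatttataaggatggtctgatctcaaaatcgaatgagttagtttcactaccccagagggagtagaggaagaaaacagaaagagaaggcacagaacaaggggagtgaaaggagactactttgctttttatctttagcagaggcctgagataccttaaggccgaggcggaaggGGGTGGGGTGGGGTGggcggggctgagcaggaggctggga
All 4 globin windows, counted over 250 bases before and 50 after the start, held all 4 motifs, as did 71 of 32851 RefSeq promoters of the same length (0.216%). Singly, GATAAG was in 7.44% of those promoters, CACCC in 57.5%, CCAAT in 37.4% and ATATAA in 9.82%. The Hba-a1 and Hba-a2 promoters were identical over the 297 bases that aligned, and Hbb-bs and Hbb-bt shared 73.6% of 295 aligned positions. In Alas2 the only matches were 3 copies of CACCC, read on the opposite strand next to one another and close to the start site. No matches overlapped in the windows shown. A match of letters is a description and not a measured binding site. Slc4a1 had no entry in the promoter table.

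**Figure D1:**
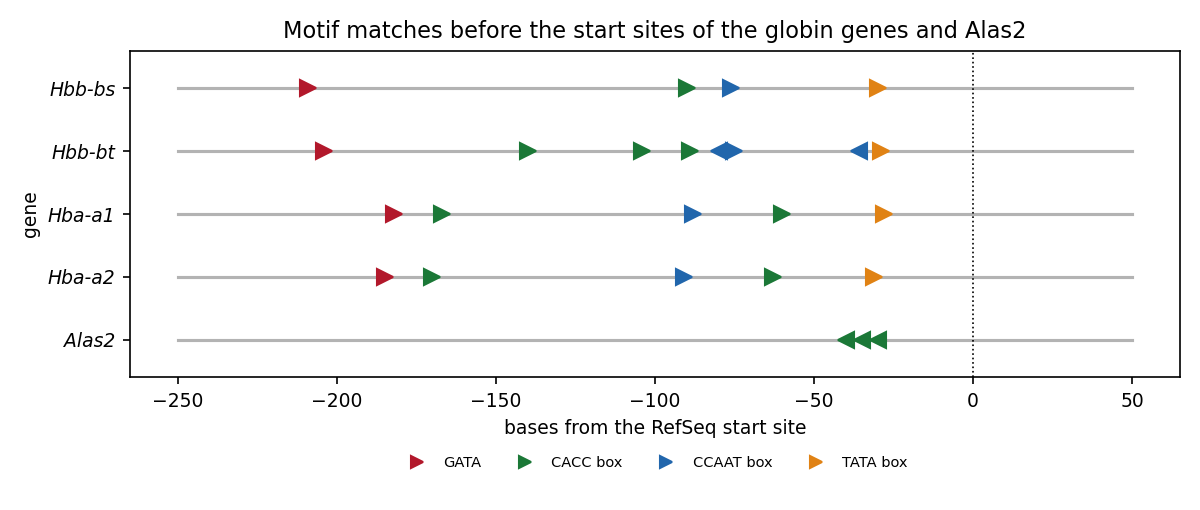
Position of motif matches (horizontal axis, bases from the RefSeq start site at the dotted line) in the promoters of the 4 globin genes and Alas2. Triangles pointing right are matches on the strand of the gene and triangles pointing left are on the opposite strand, and each globin promoter holds all 4 motifs in the order GATA first and TATA last.

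Globin RNA was abundant in the TKO-tagged pair and at the edge of detection in the organoids. The beta globin gene Hbb-bs (ENSMUSG00000052305, chromosome 7, 103826534 to 103828096, minus strand, GRCm38) had 136 and 1250 CPM in TKO-tagged libraries 1 and 2, against 0 and 0.0302 CPM in the Sox9-derived and 0 and 0.0305 CPM in the Ck19-derived organoids. Its neighbour Hbb-bt (ENSMUSG00000073940, chromosome 7, 103812524 to 103813996, minus strand) had 52.1 and 468 CPM in the TKO-tagged libraries and no fragment in any organoid library. Both beta globins were thus high in TKO-tagged library 2, lower in library 1 and at 0 or 1 fragment elsewhere. The alpha globin gene Hba-a1 (ENSMUSG00000069919, chromosome 11, 32283511 to 32284465, plus strand) had 46.1 and 411 CPM in the TKO-tagged libraries and no fragment in any organoid library. Its copy Hba-a2 (ENSMUSG00000069917, chromosome 11, 32296489 to 32297298, plus strand) had 33.3 and 320 CPM in the TKO-tagged libraries, against 0.0273 CPM in Sox9-derived organoids 1 and 0 in the other 3 organoid libraries. For all 4 genes both TKO-tagged libraries lay above all 4 organoid libraries, which held for 15.6% of the 16809 genes with at least 1 CPM in any library. Since the globins were picked for this pattern, that count is a description.

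Summed over the 4 genes, globin fragments were 267.5 and 2449 CPM in the TKO-tagged libraries (mean 1358 ± 1543, SD, n = 2), against 3 fragments in all 4 organoid libraries together. The spread within the TKO-tagged pair was thus larger than its mean. The ratio of the pooled pair to the pooled organoids was 63619, with a 95% counting interval of 21769 to 308496 that reflects the 3 organoid fragments. For Hbb-bt and Hba-a1, which had no organoid fragment, the TKO-tagged pair was at least 12167-fold and 10710-fold higher than 3 fragments over the 4 organoid libraries. In bulk RNA, fewer cells of a type and less RNA per cell cannot be told apart.

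**Figure D2:**
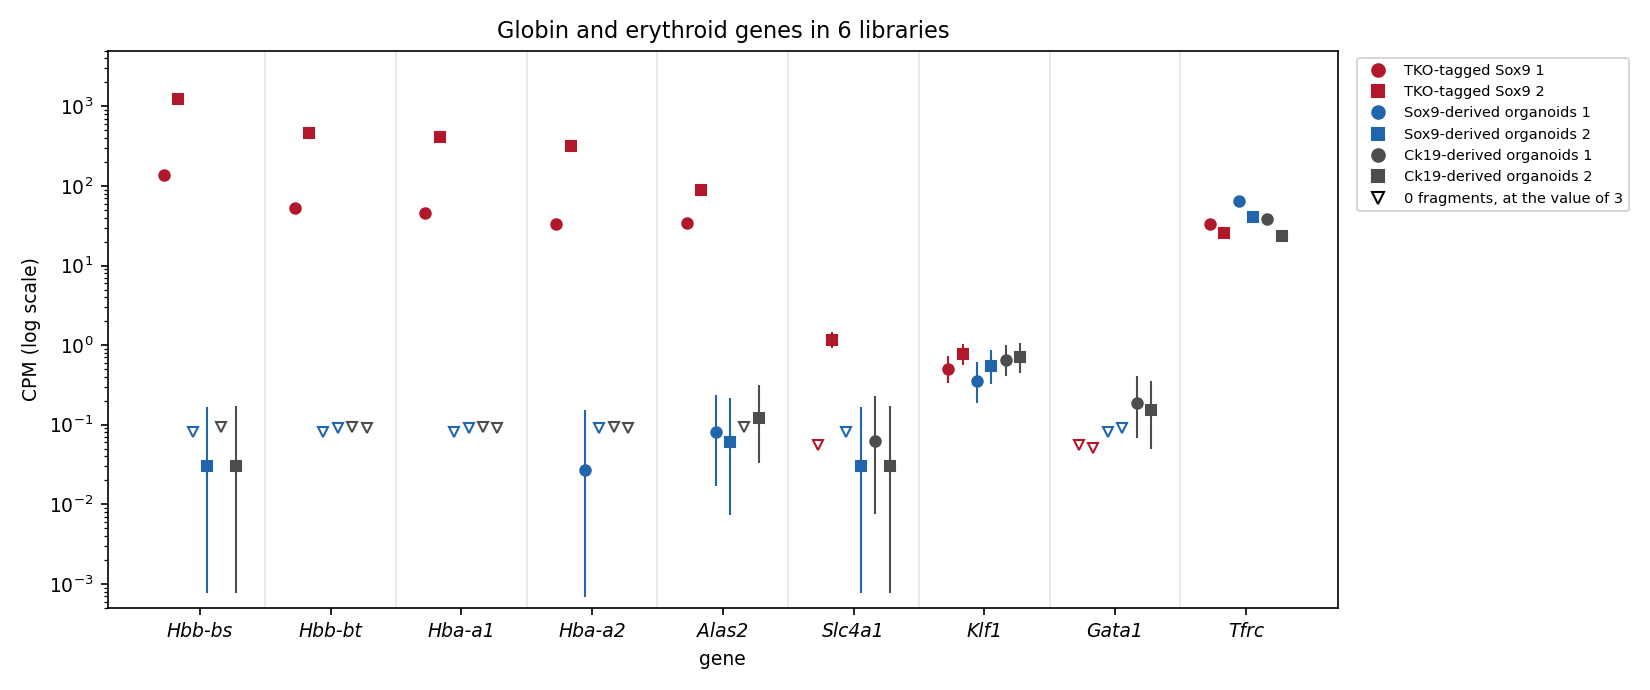
CPM (vertical axis, log scale) of the 9 genes in the 6 libraries, with bars for the exact 95% Poisson interval of the count and open triangles for libraries with 0 fragments, drawn at the value of 3. The 4 globins and Alas2 lie above every organoid library in both TKO-tagged libraries, while the values of Klf1 and Tfrc overlap between the TKO-tagged pair and the organoids and Gata1 has fragments only in the Ck19-derived organoids.

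Within the TKO-tagged pair the 4 globins kept close proportions, although library 2 held far more of them than library 1. Library 2 exceeded library 1 by 9.19-fold for Hbb-bs (95% counting interval 8.97 to 9.42), 8.97-fold for Hbb-bt (8.63 to 9.33), 8.93-fold for Hba-a1 (8.57 to 9.31) and 9.63-fold for Hba-a2 (9.17 to 10.1). Ratios of 5 or more were found for 4.06% of the 16297 genes with at least 20 fragments over the pair and 1 in library 1, whose median ratio was 1.03. The globins ranked between place 366 and 392 of those genes from the highest. Hbb-bs fragments exceeded Hbb-bt fragments by 2.61-fold in library 1 and 2.67-fold in library 2. Per length (TPM), Hbb-bs was 2.39-fold and 2.45-fold the level of Hbb-bt, Hba-a1 was 1.14-fold and 1.05-fold that of Hba-a2, and the alpha sum was 0.424 and 0.431 of the beta sum in libraries 1 and 2. The ratio of alpha to beta fragments, 0.422 (0.407 to 0.437) and 0.426 (0.421 to 0.431), did not differ between the libraries beyond counting error.

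The split between copies rests on few distinguishing bases. The longest Hba-a1 and Hba-a2 transcripts matched at 537 of 538 aligned bases and those of Hbb-bs and Hbb-bt at 575 of 618. Of all windows of 75 bases, 81% in Hba-a2, 62.2% in Hba-a1, 64.3% in Hbb-bs and 56.6% in Hbb-bt occurred unchanged in the other copy. Fragments of low mapping quality were dropped in the deposited counts, so all 4 globin values can be understated, by an amount that was not measured, and the share of each copy is uncertain. The loss can differ between genes, so the alpha to beta ratio and the levels of other genes relative to the globins are uncertain too. The globins of the embryo, which mark primitive red cells, and the minor globins were almost absent. Of 7 such genes in the tables (Hba-x, Hbb-y, Hbb-bh0, Hbb-bh1, Hbb-bh2, Hbq1a and Hbq1b), only Hbb-bh1 had fragments in the TKO-tagged libraries, 1 and 3 of them.

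Alas2, the erythroid enzyme that starts heme synthesis, followed the globins in part. The gene (ENSMUSG00000025270, chromosome X, 150547375 to 150570638, plus strand) had 1807 and 5239 fragments in the TKO-tagged libraries, or 33.9 and 87.8 CPM. It had 3 and 2 fragments in the Sox9-derived and 0 and 4 in the Ck19-derived organoids, at most 0.122 CPM. It was thus high in both TKO-tagged libraries with no overlap, and the pooled ratio to the organoids was 932 (490 to 2038). The ratio of mean CPM was 921 on library totals, 513 without TKO-tagged library 2 and 1599 on TMM-scaled CPM. It was 2.59-fold higher in TKO-tagged library 2 than in library 1 (2.45 to 2.73), less than any of the 4 globins, and 14.8% of genes had a ratio of 2 or more. Per 1000 globin fragments there were 127 Alas2 fragments (121 to 133) in library 1 and 35.8 (34.9 to 36.8) in library 2, so the 2 quantities were not in a fixed proportion. Per length, Alas2 stood at 27.8 and 72.7 TPM, or 3.94% and 1.11% of the summed globin TPM. Other genes, mainly Apex2, share 15.5% of the exon bases of Alas2, and counting was without strand.

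Slc4a1, the anion exchanger of the red cell membrane, was found in one of the TKO-tagged libraries alone. The gene (ENSMUSG00000006574, chromosome 11, 102348824 to 102366203, minus strand) had 0 and 70 fragments (0 and 1.17 CPM) in TKO-tagged libraries 1 and 2, against 0 and 1 in the Sox9-derived and 2 and 1 in the Ck19-derived organoids. Library 2 was therefore at least 20.8-fold above the 3-fragment limit of library 1, while library 1 lay within the range of the organoids. At the proportion of library 2, with 0.479 Slc4a1 fragments per 1000 globin fragments (0.373 to 0.605), the globin fragments of library 1 would go with 6.83 Slc4a1 fragments. The limit that its count of 0 allows was 0.211 per 1000 globin fragments.

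Gata1 and Klf1, the transcription factors among the 9 genes, did not lie above the organoids on library totals. Gata1, the master regulator of red cell and megakaryocyte development (ENSMUSG00000031162, chromosome X, 7959260 to 7978071, minus strand), had no fragment in either TKO-tagged library or either Sox9-derived library, against 6 and 5 fragments (0.188 and 0.153 CPM) in the Ck19-derived organoids. In the TKO-tagged pair this count of 0 allows up to 0.211 and 0.0205 Gata1 fragments per 1000 globin fragments. Klf1, the activator of adult beta globin (ENSMUSG00000054191, chromosome 8, 84901928 to 84905291, plus strand), had 27 and 46 fragments (0.507 and 0.771 CPM) in the TKO-tagged libraries. It had 0.355 and 0.543 CPM in the Sox9-derived and 0.659 and 0.702 CPM in the Ck19-derived organoids, which overlapped the TKO-tagged values, and the pooled ratio of 1.16 had a counting interval of 0.827 to 1.62. The ratio of mean CPM was 1.13 on library totals, 0.897 without TKO-tagged library 2 and 1.98 on TMM-scaled CPM. On library totals the direction for Klf1 thus rests on 1 library. On TMM-scaled CPM both TKO-tagged Klf1 values lay above every organoid value, so the overlap, direction and size all depend on the scaling.

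Tfrc, the receptor that takes up transferrin iron in red cell precursors and in most dividing cells (ENSMUSG00000022797, chromosome 16, 32608920 to 32632794, plus strand), had 33.1 and 26.0 CPM in the TKO-tagged libraries. It had 65.3 and 40.9 CPM in the Sox9-derived and 38.9 and 23.8 CPM in the Ck19-derived organoids, so the TKO-tagged values lay within the range of the organoids. The pooled ratio of the TKO-tagged pair to the organoids was 0.684 (0.655 to 0.714) on library totals. The direction rests on the scaling: on TMM factors over the 6 libraries, which move the TKO-tagged pair up by 0.81 on the log2 scale relative to the organoids, the ratio of mean CPM was 1.23 against 0.700 on library totals. Tfrc did not lie below all organoid libraries, whereas 49.4% of the 16809 genes with at least 1 CPM in any library did. The globins, Alas2, Slc4a1 and Gata1 had 0 fragments in an organoid library or more, so they could not lie below all of them. Unlike the globins, Tfrc was lower in TKO-tagged library 2 than in library 1, at 0.786-fold (0.733 to 0.842).

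Alas2 and Tfrc are known to be controlled by iron through the iron responsive element, a hairpin of RNA that binds iron regulatory proteins, which block translation of Alas2 and stabilise Tfrc RNA when iron is scarce. The elements are shown because these 2 genes are the abundant members that encode no globin. They were searched as C, 5 bases and CAGTGN, closed by a stem of 5 pairing bases, in the longest GENCODE transcripts, where 271 of 21877 genes (1.24%) held a match. Capitals mark the bulged C and the loop, and the matches are on chromosome X for Alas2 and on chromosome 16 for Tfrc.
Alas2 element: ctttggttCgtcctCAGTGcagggcaac
Tfrc element A: ataattatCggaagCAGTGccttccata
Tfrc element B: cacattatCgggagCAGTGtcttccata
Tfrc element C: gtctatatCggagaCAGTGatctccata
Tfrc element D: gtaattatCgggaaCAGTGtttcccata
The match in Alas2 began at base 90 of a transcript of 2037 bases and those in Tfrc at bases 3321, 3700, 3765 and 3812 of 4890. The counts measure RNA, and neither iron nor translation was measured.

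Only the comparison of Sox9-derived with Ck19-derived organoids could be tested on measurements that had no part in choosing the genes. Neither of the 2 members tested was called at an adjusted p under 0.05 by the edgeR quasi-likelihood test, which called 95 of 16653 genes (0.57%), and 0 of the 2 were called by DESeq2 or limma-voom or had an unadjusted edgeR p under 0.05. Tfrc had a log2 fold change of 0.76 (SE 0.367), Sox9-derived over Ck19-derived, with unadjusted p = 0.0951 and adjusted p = 0.383 by edgeR. Both Sox9-derived values lay above both Ck19-derived values, as they did for 23.8% of 16809 genes. Klf1 had a log2 fold change of −0.59 (SE 0.678) with an edgeR adjusted p of 0.718. The other 7 were under the count filter, with at most 6 fragments in any organoid library. Among them Gata1 was at 0 in the Sox9-derived pair and at 11 fragments in the Ck19-derived pair, and Slc4a1 was at 1 and 3. Xist, the RNA that coats the inactive X chromosome of females, had 2 fragments in the Sox9-derived pair against 3792 in the Ck19-derived pair, so the sex of the source animals and the origin of the cultures cannot be told apart for the X-linked Gata1 and Alas2. The fit left 2 residual degrees of freedom, so a gene without a call is not shown to be at equal levels.

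Other genes of the red cell, taken as a list of 31 late erythroid and membrane genes, did not follow the globins as a group. In both TKO-tagged libraries 12 of the 31 reached 1 CPM, and 7 had no fragment in either. Of the list, 1 gene lay above all organoid libraries and 9 below them, beside 15.6% and 49.4% of the 16809 genes. Here and in the lists below, such a count also needed 1 CPM in every library of the higher side. The shares over all genes had no such condition and left out genes under 1 CPM everywhere, so counts and shares are not strictly alike. Without the condition Car1 would also lie above, and Ank1 and Tspo2 below. The sum of the list was 863 and 746 CPM in the TKO-tagged libraries, against 2222 and 3089 CPM in the Sox9-derived and 2015 and 1988 CPM in the Ck19-derived organoids. TMM factors over the 6 libraries would raise all TKO-tagged values by 1.76-fold relative to the organoids. Its most abundant members in the TKO-tagged pair were the ubiquitin-like conjugating enzyme Ube2l6 (279 and 237 CPM), the carbonic anhydrase Car2 (246 and 240 CPM), the mitophagy receptor Bnip3l (67.6 and 44.3 CPM) and the water channel Aqp1 (68.8 and 21.4 CPM), which other tissues also express, and all 4 had at least 8.03 CPM in every organoid library. The median ratio of library 2 to library 1 over 15 of these genes was 0.884, beside 9.08 for the 4 globins.

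Some genes more particular to red cells were chosen after their values were seen. Sptb, a spectrin gene of the membrane skeleton, had 0 and 50 fragments in TKO-tagged libraries 1 and 2, against 0 and 56 in the Sox9-derived and 24 and 4 in the Ck19-derived organoids, so its values overlapped. The reverse order held for Car1, a carbonic anhydrase of red cells, with 228 and 12 fragments in TKO-tagged libraries 1 and 2 and none in the organoids. Rhag, Kel and Trim58 had no fragment in either TKO-tagged library, and Epb42 and Hemgn had 1 each in library 1. Sptb was thus higher in the library with more globin RNA, and Car1 was higher in the one with less.

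Of 10 erythroid transcription factors and receptors outside the 9 genes, 4 reached 1 CPM in both TKO-tagged libraries and 2 lay above all organoid libraries, beside 15.6% of all genes. Lmo2, an adaptor of the erythroid GATA1 complex that endothelial cells also express, had 6.63 and 20.4 CPM in the TKO-tagged libraries, against at most 0.376 CPM in the organoids. Nfe2, an activator of globin genes, had 7.49 and 10.1 CPM in the TKO-tagged libraries, against 0.0611 to 2.01 CPM in the organoids. Its ratio of library 2 to library 1 was 1.34, and which cells the Nfe2 RNA came from was not tested. Zfpm1, the cofactor of GATA1, had 18.1 and 14.1 CPM in the TKO-tagged libraries and 9.45 to 32.6 CPM in the organoids, which overlapped. Epor, the receptor of erythropoietin, had 8.28 and 2.60 CPM in the TKO-tagged libraries and 2.26 to 4.09 CPM in the organoids. Tal1, a partner of GATA1 that was chosen after its values were seen, had 86 and 1 fragments in the TKO-tagged libraries, the reverse of the order of the globins, and Gfi1b had none in either. Kit, chosen in the same way, had 25 and 75 fragments, the order of the globins. Of 7 genes of this list with a ratio, 2 (Lmo2 and Kit) were at least 2-fold higher in library 2, beside 14.8% of all genes, and 3 were at least 2-fold lower.

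The other enzymes of heme synthesis, which every cell uses, were present in all 6 libraries. All 8 reached 1 CPM in every library, 2 lay above all organoid libraries and 1 below in the TKO-tagged pair, beside 15.6% and 49.4% of all genes, and the median ratio of library 2 to library 1 was 1.29. Alas1, the isoform of the first enzyme outside red cells, had 177 and 309 CPM in the TKO-tagged libraries, against 61.6 to 112 CPM in the organoids. Alad and Fech, a pair of further abundant enzymes, had 371 and 337 CPM and 158 and 136 CPM in the TKO-tagged libraries. Per length, Alas1 stood at 68.1 and 120 TPM in TKO-tagged libraries 1 and 2, above the 27.8 and 72.7 TPM of Alas2.

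Of 17 genes of iron handling, all reached 1 CPM in both TKO-tagged libraries and 9 lay above all organoid libraries, beside 15.6% of all genes. They include Hamp, which encodes the liver hormone hepcidin, with 255 and 71.9 CPM in the TKO-tagged libraries and no fragment in the organoids. Trf, the plasma carrier transferrin, had 629 and 1011 CPM in the TKO-tagged libraries, against 9.95 to 104 CPM in the organoids. Fth1, the heavy chain of the storage protein ferritin, had 3311 and 2974 CPM in the TKO-tagged libraries, against 1718 to 2116 CPM in the organoids, and the metal transporter Slc39a14 had 143 and 110 CPM, against 6.42 to 17.5 CPM. Tfr2, the liver form of the receptor and chosen after its values were seen, had 77.8 and 140 CPM in the TKO-tagged libraries, against at most 1.07 CPM in the organoids, whereas Tfrc overlapped.

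Between Sox9-derived and Ck19-derived organoids, edgeR called none of the 19 late erythroid, 6 transcription factor and receptor, 8 heme and 13 iron genes that it tested. An unadjusted p under 0.05 was found for 8, 0, 2 and 4 of them, DESeq2 called 4, 0, 1 and 2, and limma-voom called none. Of all 16653 genes, 2792 had an unadjusted edgeR p under 0.05, DESeq2 called 1512 and limma-voom called 93. The median log2 fold changes, Sox9-derived over Ck19-derived, were −0.35, −0.22, 0.28 and 0.59 in the same order, beside 0.01 over all genes tested.

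Markers of other blood and liver cells were set beside the globins, since RNA of those cells was also present in the TKO-tagged pair. Of 10 neutrophil and granulocyte precursor genes with a ratio, 9 were at least 2-fold higher in TKO-tagged library 2 than in library 1, the direction of the globins, beside 14.8% of all genes. The list summed to 22.8 and 109 CPM in libraries 1 and 2, the median ratio over the 10 genes was 5.84, and 6 of them had a ratio of at least 5, beside 4.06% of all genes. Csf3r, the receptor of a granulocyte growth factor, went the other way, with 2.85 and 0.654 CPM in libraries 1 and 2 (chosen after its values were seen). S100a9 and S100a8, the abundant calcium-binding proteins of neutrophils, had 10.1 and 37.6 CPM and 5.27 and 31.0 CPM in TKO-tagged libraries 1 and 2, and at most 0.181 CPM in the organoids. Ngp, a granule protein, had 0.394 and 12.0 CPM, and Retnlg 2.91 and 8.95 CPM, in the TKO-tagged libraries. In the organoids the list summed to 117 to 964 CPM, of which Ltf, an iron-binding protein that epithelia also secrete, made up 116 to 964 CPM (chosen after its values were seen).

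The medians of the remaining lists did not show that step. Pan-leukocyte genes summed to 363 and 236 CPM in the TKO-tagged libraries, against 0.300 to 3.51 CPM in the organoids, with a median ratio of 0.689 over 8 genes. Monocyte and macrophage genes summed to 1311 and 1056 CPM in the TKO-tagged libraries (median ratio 0.820 over 12 genes), led by Lyz2 at 535 and 554 CPM and C1qb at 274 and 165 CPM. Within that list some macrophage genes, chosen after their values were seen, were higher in library 2: Marco had 0.0188 and 18.0 CPM in libraries 1 and 2, Cd5l 26.8 and 56.9 CPM, Clec4f 12.7 and 30.0 CPM, and Vsig4 11.8 and 18.8 CPM. T and NK cell genes summed to 28.6 and 11.8 CPM and B and plasma cell genes to 10.5 and 12.7 CPM in the TKO-tagged libraries. Liver endothelial genes had a median ratio of 0.990 over 8 genes, and hepatocyte genes, at 59857 and 54164 CPM in sum, 0.950 over 10 genes. Platelet and megakaryocyte genes were low in the TKO-tagged pair, where 2 of 12 reached 1 CPM in both libraries and 6 had no fragment. Biliary genes lay below all organoid libraries for 8 of 10, and stellate cell genes above them for 7 of 9, beside 49.4% of all genes below and 15.6% above. The part of these cells in the globin values was not tested.

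**Figure D3:**
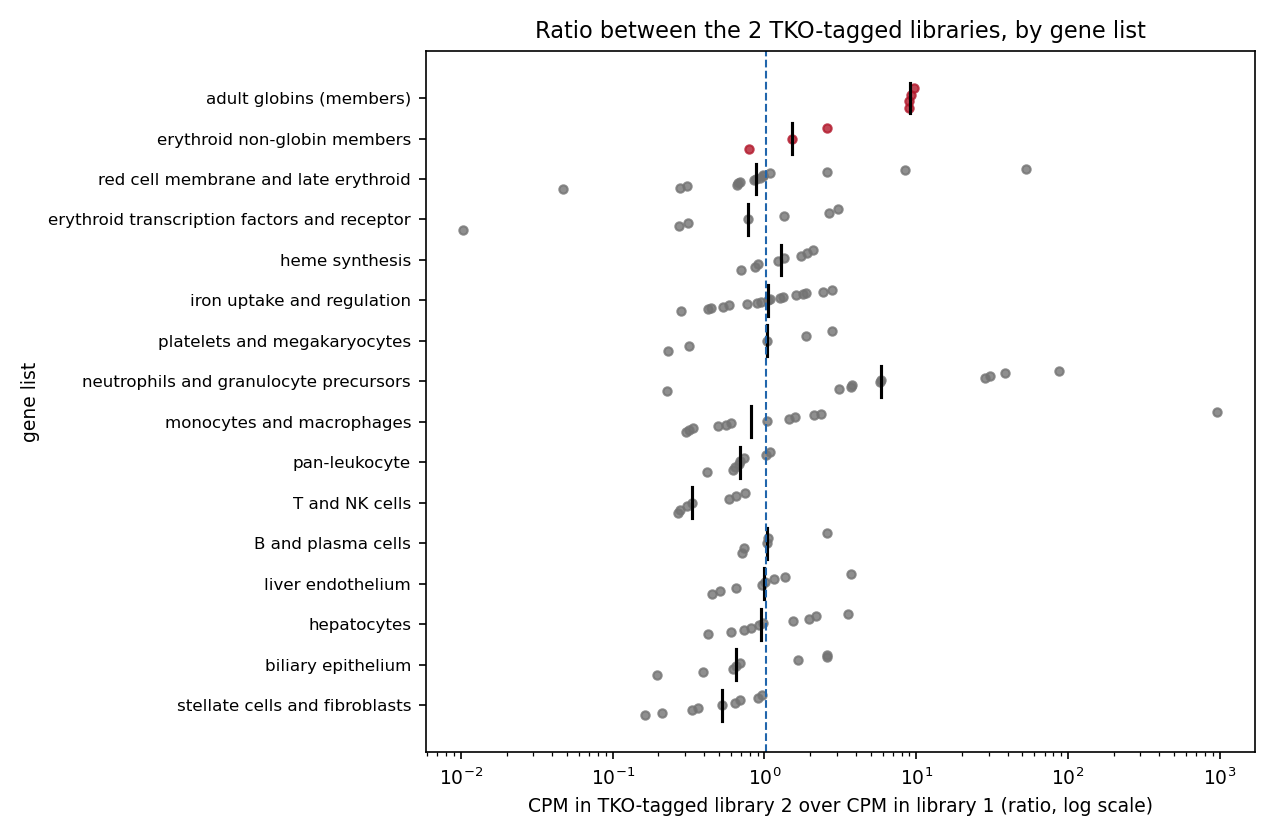
Ratio of CPM in TKO-tagged library 2 to library 1 (horizontal axis, log scale) for each gene with at least 20 fragments over the pair and 1 in library 1, by gene list, with a vertical bar at the median of the list and a dashed line at the median of 16297 genes (1.03). The 4 globins lie close together near 9, the neutrophil genes have a median of 5.84, and the medians of the other lists lie between 0.335 and 1.52 (1 biliary gene with a ratio of 0 is not drawn).

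**Figure D4:**
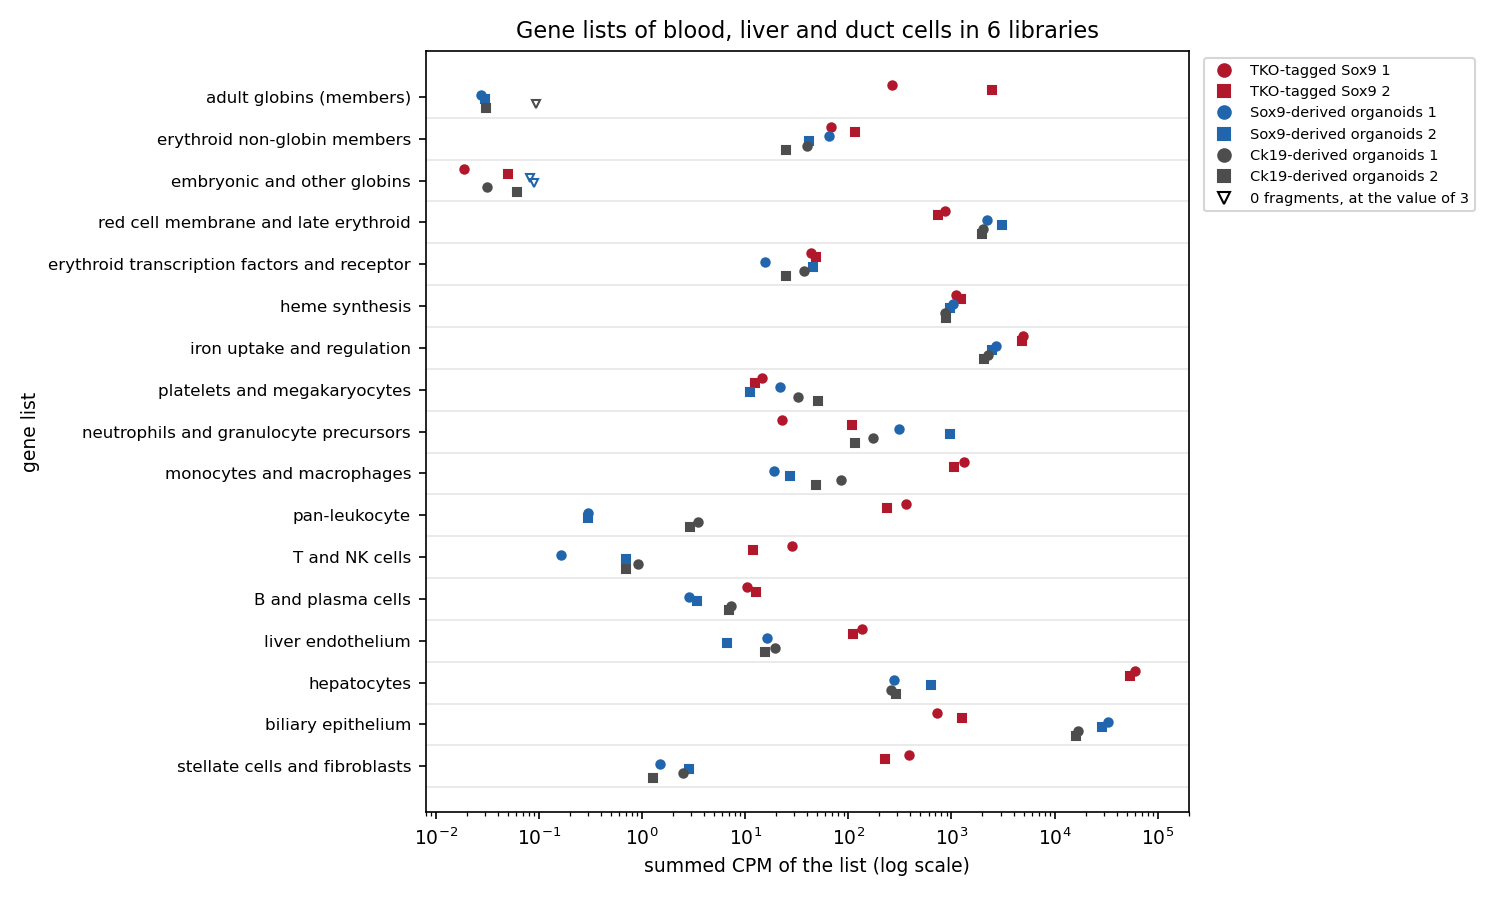
Summed CPM (horizontal axis, log scale) of each gene list in the 6 libraries, with an open triangle for a sum of 0 fragments drawn at the value of 3. The globins separate the TKO-tagged pair from the organoids and library 2 from library 1. The pan-leukocyte, macrophage, T and NK, B and plasma, endothelial, hepatocyte, stellate, heme and iron lists are higher in both TKO-tagged libraries than in every organoid library. The same holds narrowly for the erythroid members that encode no globin (67.5 and 116 CPM against at most 65.7 CPM).

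Read by role, the members above all organoid libraries in the TKO-tagged pair on library totals were the products and the heme enzyme (the 4 globins and Alas2). Gata1 was at 0 fragments, and Klf1 and Tfrc overlapped the organoids on library totals. On TMM-scaled CPM Tfrc still overlapped them, but both TKO-tagged Klf1 values lay above every organoid value. Slc4a1 and Sptb had fragments in TKO-tagged library 2, where globin RNA was 9.16-fold higher, and none in library 1. Globin RNA carried over from blood and globin RNA of erythroid cells within the sample cannot be told apart in these bulk counts.

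By a rule of likeness, the 5 genes nearest to the summed globins were named, as the distance between centred log2(CPM + 1) profiles over the 6 libraries among 13043 genes with at least 5 CPM in any library. Cyp2c70 (distance 1.12), a liver cytochrome P450 of bile acid metabolism, had 315 and 1085 CPM in the TKO-tagged libraries, and Orm1 (1.34), an acute phase plasma protein, 135 and 958 CPM. Hsd17b6 (1.63) had 440 and 869 CPM, Serpinf1 (1.68) 376 and 760 CPM, and Apoc1 (1.83), an apolipoprotein, 1183 and 2217 CPM in the TKO-tagged libraries. Library 2 exceeded library 1 by between 1.87-fold (Apoc1) and 7.11-fold (Orm1) for these 5, against 9.16-fold for the summed globins. Measured the same way, Hbb-bs lay at 1.11 from the sum, Hba-a2 at 3.38 and Alas2 at 4.72. The measure rests on 6 libraries of which 4 are near 0, so it mainly selects genes that are abundant in the TKO-tagged pair alone.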

How the data were processed

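Bulk RNA was sequenced in 10 samples, and 6 libraries were used here. Fragments were counted per gene by the authors using featureCounts (v1.5.0-p3), per the file headers, on gene models of Ensembl 87 (GRCm38), keeping primary alignments with both ends mapped and a mapping quality of 10 or more, whatever the strand. The deposited counts were not normalized. The submitters' processing notes name STAR 2.5.4b, Subread, edgeR and limma, and list mm9, hg19 and GRCm38 as builds without saying what each was for. Duplicates were to be ignored, per the file headers, but 0 fragments were flagged as such. Low mapping quality took 33.2% to 40.9% of fragments, which can lower genes with near copies, and the loss for the globins was not measured.

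Columns were tied to samples by name. The TKO-tagged columns fit the same 2 samples as the untagged Sox9 columns and were only described. Another 4 columns fit no label and stayed out, and 3 groups had no matched column. Symbols came from GENCODE M21 (49326 of 49585 gene IDs). CPM used library totals, and TPM used the deposited gene lengths. Replicates differed far beyond sampling noise (chi-square per gene 412 in the TKO-tagged, 118 in the Sox9-derived and 62.8 in the Ck19-derived pair), so each counts as a library, and the p-values measure only the spread between these libraries, which may be technical.

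The organoid groups were compared with edgeR 4.0.16 in R 4.3.3 (filterByExpr with a minimum count of 10, TMM, quasi-likelihood test, two-sided, Benjamini-Hochberg threshold 0.05 over 16653 genes; biological coefficient of variation 0.434). The standard error is the log2 fold change over the square root of the F statistic. The test was also tried on simulated data. Alternatives were DESeq2 1.42.0, limma-voom (limma 3.58.1), other size factors, no filter, a replicate block, leaving out each library, the TKO-tagged columns in place, and other CPM totals. Intervals are exact Poisson for a count and exact conditional binomial for a ratio of counts.

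The members and the 17 gene lists (178 of 181 entries in the tables) were chosen with earlier results of these data known. Genes named are the 9 members, the 4 of each other list with the highest mean CPM in the TKO-tagged pair, and the 5 nearest profiles. Other genes named were chosen after their values were seen, apart from Epcam and Xist, which check labels and sex. Lists cover adult and embryonic globins, erythroid, heme, iron, platelet, neutrophil, macrophage, pan-leukocyte, T and NK, B, endothelial, hepatocyte, biliary and stellate genes. A few list members that the rule would name are not reported here.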

Additional observations from a re-analysis of the deposited data

How the results depend on the processing

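The number of genes called between Sox9-derived and Ck19-derived organoids (95) was 97 with relative log expression factors and 93 with limma-voom, but 506 without the count filter, 1512 with DESeq2 and 5190 with the TKO-tagged columns in place of the untagged Sox9 columns. Leaving out each library in turn gave 0 to 1394 calls: 1394 and 975 without Sox9-derived organoids 1 and 2, and 0 without either Ck19-derived library (1692 and 1611 genes at an unadjusted p under 0.05). With the replicate number as a block edgeR called 0 genes, with 2665 at an unadjusted p under 0.05. The numbers pair nothing that the labels state, and the deviations of same-numbered libraries correlated at 0.0553, so the block is given here only. Tfrc, fitted under all of these but the TKO-tagged columns, was uncalled in each (log2 fold change 0.40 to 1.17, adjusted p 0.132 to 0.787; 0.77 with the block), and Klf1 likewise (−0.93 to −0.30; −0.62 with the block).

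The description of the TKO-tagged pair depends on scaling and on single libraries. The summed globins averaged 1358 CPM, 1925 on TMM-scaled CPM, 2449 without library 1 and 267.5 without library 2. The Alas2 ratio moved from 921 to 513 without TKO-tagged library 2 and to 1599 on TMM-scaled CPM. The ratio of mean CPM to the organoids turned above 1 for Tfrc on TMM-scaled CPM (1.23 against 0.700) and under 1 for Klf1 without TKO-tagged library 2 (0.897 against 1.13, and 0.897 to 1.37 over all libraries left out). Removing mitochondrial or globin counts from the totals left the ratios and means within the spread of the pair. Leaving out 1 organoid library at a time kept Tfrc between 0.611 and 0.856. With 2 libraries a pair, spread is poorly known, and depth limits Slc4a1 and Gata1, whose counts reach 0.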
